A study of Triticum aestivum with 2 samples.

Results

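The circRNAs described here were the nuclear ones with an annotated host transcript in leaves of wheat (Triticum aestivum L. cv. Aikang 58). The rule for choosing them used annotation and no read values, but was set with earlier results of these data known. It took the entries classed exonic, intronic, antisense or sense overlapping that did not lie on the chloroplast genome (Pt). They numbered 34 of the 88 circRNAs listed. Of these, 6 were exonic, 2 intronic, 2 antisense and 24 sense overlapping, while the remaining entries were 53 intergenic circRNAs and the circRNA on Pt. Seedlings at the two-leaf stage were kept for 12 h in nutrient solution with a final 20% polyethylene glycol, which lowers the osmotic potential around the roots to -0.975 MPa (PEG), or received plain nutrient solution (CK, the control). Leaves of 3 pots were pooled into 1 library per condition, so no value below has a replicate. The study also assayed some circRNAs, several of these among them, by real-time PCR in biological replicates. It reported all those assayed as circular and most with expression patterns like its sequencing. No value of that assay is used here.

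CircRNAs arise when the 3′ end of an RNA segment is joined back to its own 5′ end, usually by back-splicing of exons within a pre-mRNA. An exonic circRNA keeps exon sequence of its host gene, an intronic one comes from within an intron, and an antisense one lies opposite the annotated transcript. By the name of their class, sense overlapping circRNAs share their strand with a transcript without being placed in the exonic or intronic class. Host strands were not checked here. Because a circle has no free end, it withstands exonucleases, and reads that cross the back-splice junction are what sets it apart from the linear transcript of the same gene. Some circRNAs in animals bind microRNAs, and many plant circRNAs have no known function.

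The control library held 353 junction reads over all entries and the PEG library 124, of which the host-associated nuclear circRNAs took 100 and 32. The Pt circRNA, also sense overlapping, had 0 control and 46 PEG reads. Without it, the host-associated ones held 28.3% of the junction reads in the control and 41.0% in PEG. Among the detected ones the median was 3 control reads and 2 PEG reads, with at most 17 and 6 reads. In the deposited log2 values PEG reads were multiplied by 1.37, and 0 reads were entered as 1. This treats PEG as the smaller library, whereas the order in which the study names its libraries would make it the larger, so results are also given with the totals exchanged where that matters. Further scalings set the junction reads of both libraries equal, either all of them (junction-read scaling) or those of nuclear circRNAs (nuclear scaling), the latter leaving out the Pt circRNA. Ratios below are PEG over control on the deposited scaling, with exact (Clopper-Pearson) 95% intervals that cover counting error only. For each circRNA the split of its reads between the libraries was tested by an exact binomial test (two-sided), adjusted by Benjamini-Hochberg over all 88 circRNAs, which compares these libraries and not the conditions. No count of 1 occurs in the table and the lowest above 0 is 2, so a 0 may hide an uncalled read. Sums and intervals below take each 0 as it stands, and no reads were added to the sums.

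**Figure D1:**
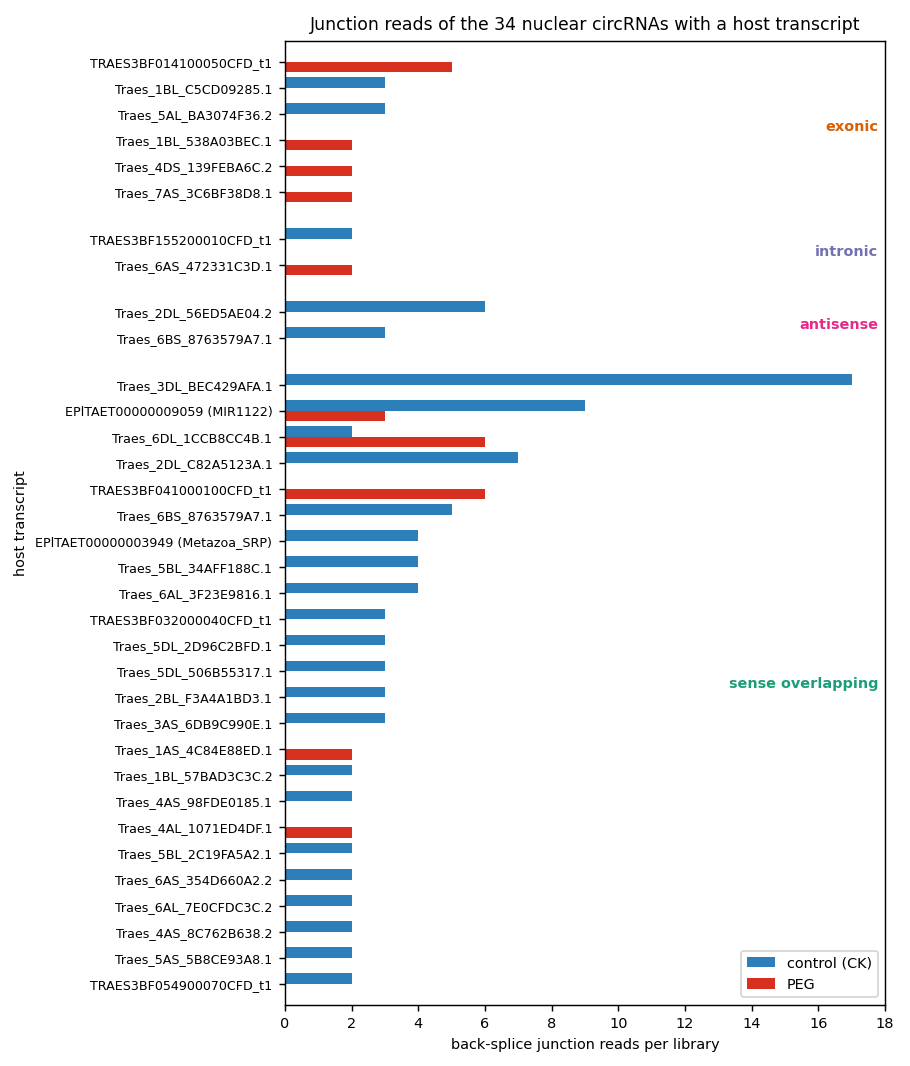
Back-splice junction reads (x axis) of each of the 34 nuclear circRNAs in the control (blue) and PEG (red) library, by host transcript (y axis) and class. Most circRNAs have a bar in 1 library only, and the longest bar is the 17 control reads of the circRNA on Traes_3DL_BEC429AFA.1.

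The 34 circRNAs named 33 host transcripts, and Traes_6BS_8763579A7.1 was the host named for an antisense and a sense overlapping circRNA. Of the circRNAs, 27 had hosts with names of the wheat survey sequence (Traes_), 5 had hosts of the separately annotated chromosome 3B (TRAES3BF) and 2 had non-coding RNA models (EPlTAET). Only the non-coding models carried a gene name, MIR1122 and Metazoa_SRP. None of the hosts was found in the RefSeq wheat gene table at hand, built on a different assembly, so no gene function is given for the others. The chromosome in the host name equalled that of the circRNA for 31 circRNAs and differed for 0. On the remaining host with a chromosome in its name, TRAES3BF054900070CFD_t1, the circRNA lies on the scaffold v443_0549, whose name holds no chromosome. For all 9 circRNAs on survey scaffolds, the chromosome arm in the scaffold name was that of the host. Long-arm hosts were named for 16 circRNAs and short-arm hosts for 11. Strand was + for 15, - for 17 and entered as * for 2, 6A:140003990|140005122 and v443_0549:503631|504959, both classed sense overlapping.

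By genomic position, 24 circRNAs lay on assembled chromosomes and 10 on scaffolds. Subgenomes A, B and D of hexaploid wheat held 12, 12 and 9 of them. Homoeologous groups 5 and 6, the sets of corresponding A, B and D chromosomes, held 7 each and group 3 held 6. Group 7 held 1 of the 34, against 16 of the 53 intergenic circRNAs. With overlapping circRNAs joined, those 16 lay in 6 of the 35 intergenic loci. Chromosomes 3B and 6A had the most, with 4 each.

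The predicted sequence was shorter than the genomic span, the distance between the junction ends, for 4 exonic circRNAs alone. IWGSC_CSS_4DS_scaff_2307013:2345|3583 on Traes_4DS_139FEBA6C.2 had a predicted length of 713 nt in a span of 1239 nt, and 5A:70254325|70255036 on Traes_5AL_BA3074F36.2 had 426 of 712 nt. For 1B:170821470|170822995 on Traes_1BL_C5CD09285.1 it was 601 of 1526 nt, and for 3B:68150153|68152981 on TRAES3BF014100050CFD_t1 it was 711 of 2829 nt, or 25.1% of the span. Between 286 and 2118 nt were thus left out in these circRNAs. The other 2 exonic circRNAs were short, with 87 and 112 nt, and their whole span was predicted. All 28 circRNAs outside the exonic class were also predicted over their whole span, introns included. Their lengths therefore are upper values for a spliced circle, and lengths of exonic and other circRNAs are not the same measure. Over the 34 circRNAs the span ran from 86 to 446848 nt with a median of 1930.5 nt, against 61 to 4233 nt with a median of 1357 nt for the intergenic circRNAs. Predicted length was under 200 nt for 4 circRNAs, 200 to 100000 nt for 22 and over 100000 nt for 8.

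**Figure D2:**
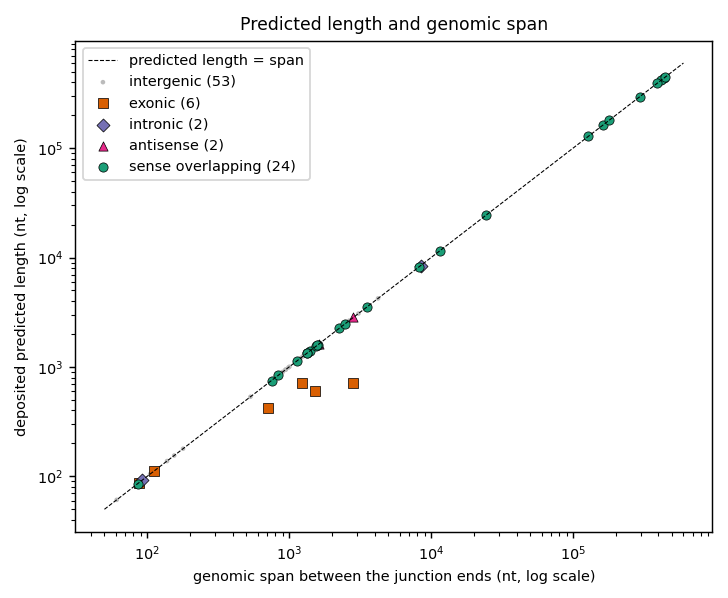
Deposited predicted length (y axis, nt, log scale) against genomic span (x axis, nt, log scale) for host-associated nuclear circRNAs by class and for intergenic circRNAs (grey). The 4 exonic circRNAs below the dashed line of equality have predicted lengths of 426 to 713 nt, and 8 sense overlapping circRNAs lie above 100000 nt.

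To compare dehydration with the control, the reads of each circRNA were set side by side. In the control alone 24 of the 34 were read, beside 62 of all 88 circRNAs. In PEG alone 8 were read, beside 15 of all, and in both libraries 2, beside 11 of all. At the 2-fold cutoff of the study's methods, 9 were higher in PEG (26.5%) beside 18.2% of all circRNAs, and 16 were lower (47.1%) beside 52.3% of all. These shares of the host-associated circRNAs lie near the background. With 1 or 0.5 reads added to every count, in place of 1 read for a 0, 24 of the 34 were lower and 9 higher. That count was not made over all circRNAs. Of the 25 calls, 23 were read in 1 library only and 19 rested on at most 5 reads. The 6 circRNAs with 2 reads in PEG alone passed the cutoff, since 2 reads against 0 give a fold of 2.74, while the 9 with 2 reads in the control alone did not, at a fold of 1.46. The median log2 difference was -0.55, beside -1.13 over all circRNAs. In the exact test, 1 of the 34 passed, lower in PEG, beside 3.41% of all circRNAs in that direction, and none was higher, beside 1.14%. At an unadjusted p under 0.05 in this test, 3 were lower (8.82%) beside 17.0% of all circRNAs, and 2 were higher (5.88%) beside 5.68% of all. In sum the 34 circRNAs had a ratio of 0.438 (0.285 to 0.658), or 2.28-fold fewer scaled reads in PEG, which is 0.234 with the totals exchanged and turns to 1.45 on the nuclear scaling. Since 24 were at 0 in PEG and 8 in the control, a read hidden behind each 0 would raise this ratio. The interval does not cover that.

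Exonic circRNAs held 6 control and 11 PEG reads, a ratio of 2.51 (0.851 to 8.26) whose interval includes 1. Read in PEG alone were 4 of the 6, beside 15 of all 88 circRNAs. The most reads were on 3B:68150153|68152981, with 0 control and 5 PEG reads. With the control set at a floor of 3 counts it was 2.28-fold higher, and the exact interval of its ratio started lower, at 1.25 (exact adjusted p = 0.148). That bound was 0.669 with the totals exchanged and 0.916 without scaling, so the interval then included 1, while the circRNA passed on the junction-read (exact adjusted p = 0.0261) and nuclear scalings (0.00427). Without it the exonic ratio was 1.37 (0.366 to 5.12). The others had so few reads that they could not pass the test. 1B:145050281|145050367, of 87 nt on Traes_1BL_538A03BEC.1, IWGSC_CSS_4DS_scaff_2307013:2345|3583 and IWGSC_CSS_7AS_scaff_4186469:2571|2682, of 112 nt on Traes_7AS_3C6BF38D8.1, had 2 reads each in PEG. 1B:170821470|170822995 and 5A:70254325|70255036 had 3 reads each in the control. Both exonic circRNAs of the control were among the 4 with sequence left out of the span, as were 2 of the 4 in PEG.

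The intronic circRNAs differed in size by far more than in reads. 3B:669974611|669983063, within TRAES3BF155200010CFD_t1, spanned 8453 nt and had 2 control and 0 PEG reads. 6A:105062543|105062634, within Traes_6AS_472331C3D.1, spanned 92 nt and had 0 control and 2 PEG reads. Their summed ratio of 1.37 had an interval from 0.0992 to 18.9, so a difference was not detectable at this depth.

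Both antisense circRNAs were on the - strand and read in the control alone, with 9 reads in sum and a ratio of 0 (0 to 0.693). 2D:62914891|62916501, of 1611 nt opposite Traes_2DL_56ED5AE04.2, had 6 control and 0 PEG reads, which is 1.46-fold lower against a floor of 3 counts in PEG. Its exact adjusted p was 0.189, with an interval of 0 to 1.16. With the totals exchanged it passed (exact adjusted p = 0.0293). The other, IWGSC_CSS_6BS_scaff_3041719:1597|4431, spanned 2835 nt and had 3 control reads. The floors leave out the counting error of the library with reads, so the interval bound, where it is nearer to 1, is the more careful limit. For 6 reads against 0 the test reached an unadjusted p of 0.0429 although the interval includes 1, since the test and the interval treat the far tail differently.

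Sense overlapping circRNAs carried most of the reads, 83 in the control and 19 in PEG, with a ratio of 0.313 (0.180 to 0.520). The ratio was 0.394 (0.223 to 0.665) without the circRNA with the most reads, 0.167 with the totals exchanged, and 1.04 on the nuclear scaling. In the control alone 19 of the 24 were read and in PEG alone 3, beside 62 and 15 of all 88 circRNAs. The circRNA that passed the exact test was 3D:115010704|115012101, of 1398 nt on the + strand with host Traes_3DL_BEC429AFA.1. It had 17 control and 0 PEG reads, 4.14-fold lower against a floor of 3 counts, with an interval of 0 to 0.332 (exact adjusted p = 0.00292). It gave 17% of all control reads of the 34 circRNAs. The call held with the totals exchanged (exact adjusted p = 1.26e-05) and without scaling, and ended on the junction-read scaling (exact adjusted p = 0.112) and the nuclear scaling (0.275).

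Next among the sense overlapping circRNAs of intermediate length came IWGSC_CSS_2DL_scaff_9883850:326|1869, of 1544 nt on Traes_2DL_C82A5123A.1, with 7 control and 0 PEG reads. Its ratio interval was 0 to 0.950 (exact adjusted p = 0.175), and it passed with the totals exchanged (exact adjusted p = 0.0210). 3B:15806226|15817694, of 11469 nt on TRAES3BF041000100CFD_t1, was the reverse case, with 0 control and 6 PEG reads. It was 2.74-fold higher at the same floor, with an interval starting at 1.61 (exact adjusted p = 0.0996), and passed on the junction-read (exact adjusted p = 0.0136) and nuclear scalings (0.00155). With the totals exchanged its interval started at 0.860 and included 1 (exact adjusted p = 0.111). IWGSC_CSS_6BS_scaff_3041719:2848|4431 had 5 control and 0 PEG reads (exact adjusted p = 0.245). The other 11 of this length had 2 or 3 reads each. In PEG alone was 1A:151108383|151109134, of 752 nt, and the other 10 were read in the control alone, with spans from 837 to 24334 nt. Together the 15 of this length had 53 control and 8 PEG reads, a ratio of 0.207 (0.0848 to 0.437).

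A short sense overlapping circRNA, 4D:8516993|8517078, lay on EPlTAET00000003949, annotated as Metazoa_SRP, a model of the RNA in the signal recognition particle, which directs nascent secreted proteins to the endoplasmic reticulum. Its span was 86 nt, with 4 control and 0 PEG reads. It was the exception among the 4 circRNAs under 200 nt, since the other 3, on Traes_1BL_538A03BEC.1, Traes_7AS_3C6BF38D8.1 and Traes_6AS_472331C3D.1, were read in PEG alone with 2 reads each. All 4 lay on the + strand. Their summed ratio was 2.05 (0.487 to 9.89), an interval that includes 1.

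The 8 circRNAs over 100000 nt were all sense overlapping and spanned 128137 to 446848 nt. They had 26 control and 11 PEG reads, a ratio of 0.579 (0.258 to 1.21). Within this group lay both circRNAs that were read in each library. 5D:18963119|19091255, on EPlTAET00000009059, overlapped MIR1122, a gene of a wheat microRNA, and had 9 control and 3 PEG reads, a ratio of 0.456 (0.0794 to 1.83, exact adjusted p = 0.387). 6D:169739848|170130661, on Traes_6DL_1CCB8CC4B.1, had 2 control and 6 PEG reads, a ratio of 4.11 (0.734 to 41.6, exact adjusted p = 0.245). On the deposited scaling their ratios lay on opposite sides of 1 and neither interval excluded it. On the nuclear scaling both ratios lay above 1, and 6D:169739848|170130661 passed (13.6, 2.43 to 138, exact adjusted p = 0.0124). On the junction-read scaling its interval, 1.53 to 86.5, excluded 1 without passing (exact adjusted p = 0.0657). 5B:221655648|222074380 on Traes_5BL_34AFF188C.1 and 6A:201878372|202172929 on Traes_6AL_3F23E9816.1 had 4 control reads each, and 5D:124926662|125373509 on Traes_5DL_2D96C2BFD.1 had 3. Those of this size with the fewest reads were 4A:1812736|1975272 on Traes_4AS_98FDE0185.1 and 5B:221655459|221836117 on Traes_5BL_2C19FA5A2.1, with 2 control reads each, and 4A:214775737|215210034 on Traes_4AL_1071ED4DF.1, with 2 PEG reads. Each host here is a single annotated transcript, and how much of these spans it covers was not analysed here.

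**Figure D3:**
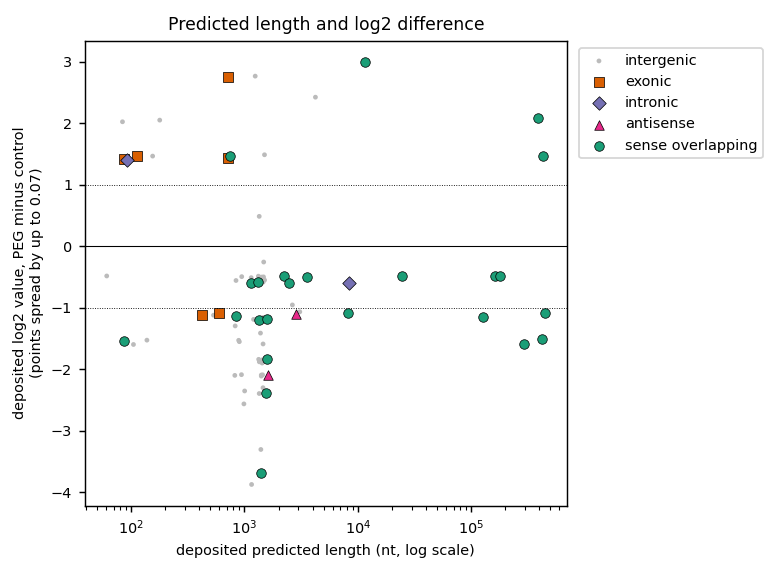
Deposited log2 value in PEG minus that in the control (y axis) against predicted length (x axis, nt, log scale), with dotted lines at the 2-fold cutoff and grey points for intergenic circRNAs. Of the host-associated circRNAs under 200 nt, 3 of 4 lie above the upper line, each with 2 PEG reads against 0. Of the 22 between 200 and 100000 nt, 11 lie below the lower line and 4 above the upper one. Over all 88 circRNAs, 18.2% were higher and 52.3% lower at this cutoff. Of all 10 nuclear circRNAs under 200 nt, 6 were higher and 3 lower.

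Overlaps of at least 1 base joined 4 of the 34 circRNAs into 2 loci, and none overlapped an intergenic circRNA. On 5B, 5B:221655459|221836117 (+ strand) and 5B:221655648|222074380 (- strand) began 189 nt apart and shared 180470 nt, which is 99.9% of the shorter circRNA. They were assigned to opposite strands and different hosts, and together had 6 control and 0 PEG reads (exact adjusted p = 0.146 over 68 loci). On the 6BS scaffold, the antisense and the sense overlapping circRNA of Traes_6BS_8763579A7.1 ended at the same base, 4431, and began 1251 nt apart. Together they had 8 control and 0 PEG reads, with an interval of 0 to 0.802 (exact adjusted p = 0.111 over the loci). In both loci every read was in the control, and neither passed the test.

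Intergenic circRNAs lay within 1000 nt of 2 host-associated ones. 3D:115010704|115012101 ended 689 nt before 3D:115012791|115014147, which had 2 control and 0 PEG reads, and 695 nt before 3D:115012797|115014147, which had 3 reads in each library. 5D:147437889|147439226, with 3 control and 0 PEG reads on Traes_5DL_506B55317.1, began 738 nt after 5D:147436328|147437150, with 6 control and 0 PEG reads. Thus the 3D circRNA that was read in the control alone had a near neighbour with reads in both libraries.

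**Figure D4:**
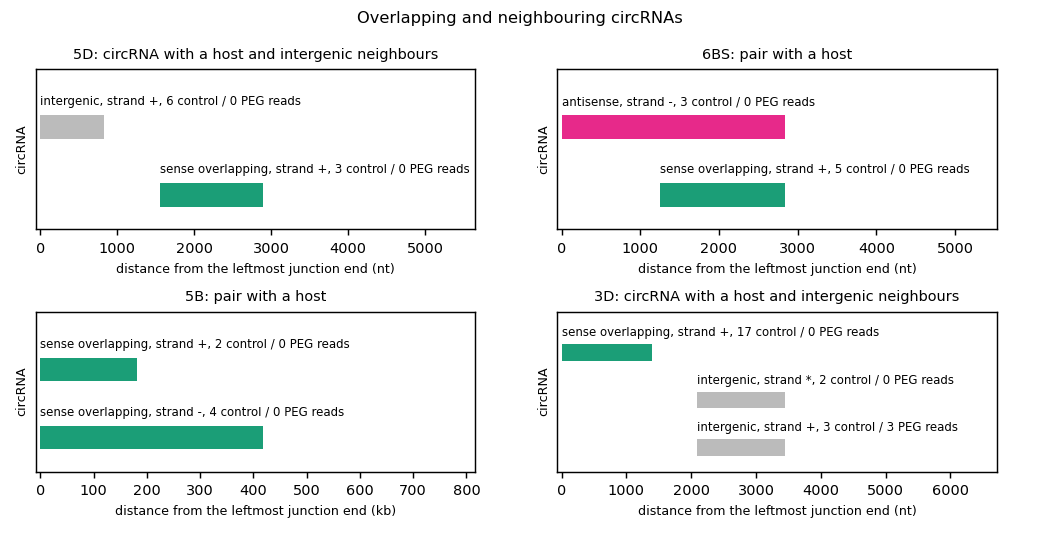
Spans of overlapping and neighbouring circRNAs (bars; x axis, distance from the leftmost junction end in kb or nt), with class, strand and reads written above each. The 5B spans start 189 nt apart on opposite strands, and the 6BS spans share an end.

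By subgenome, the host-associated circRNAs had 20 control and 8 PEG reads in A, a ratio of 0.547 (0.209 to 1.30), 27 and 13 in B, a ratio of 0.659 (0.312 to 1.32), and 51 and 11 in D, a ratio of 0.295 (0.139 to 0.574). The interval excluded 1 for D, and still did without 3D:115010704|115012101 (0.443, 0.202 to 0.895), but the D ratio was 0.976 on the nuclear scaling. With the totals exchanged the intervals of A (0.292, 0.111 to 0.693) and B (0.352, 0.167 to 0.706) excluded 1 as well, as they did without scaling, where they ended at 0.948 and 0.966, and on the nuclear scaling that of B did on the other side (2.18, 1.03 to 4.37). In B the PEG reads came mostly from chromosome 3B. Its 5 TRAES3BF hosts, with the scaffold v443_0549 included, had 7 control and 11 PEG reads, whereas the 8 B circRNAs with other hosts had 22 and 2. Without 3B:15806226|15817694 alone the B ratio was 0.355 (0.130 to 0.835), an interval that excludes 1. Other single circRNAs of B were not left out in turn. Homoeologous group 2 had 16 control and 0 PEG reads over 3 circRNAs (interval 0 to 0.355), and group 5 had 26 and 3 over 7 (0.0306 to 0.515). The intergenic circRNAs had 51 and 10 in group 2 and 56 and 9 in group 5. Host-associated reads were 5 and 4 in group 1, 25 and 11 in group 3, 8 and 4 in group 4. They were 18 and 8 in group 6 and 0 and 2 in group 7. The intervals of these groups included 1.

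**Figure D5:**
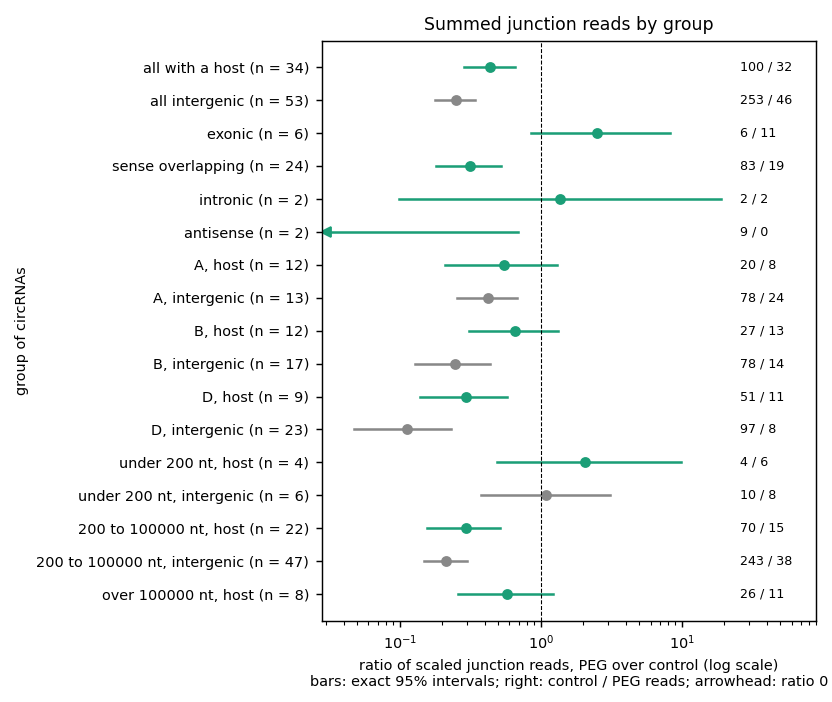
Ratio of scaled junction reads, PEG over control (x axis, log scale), with exact 95% intervals, for groups of host-associated circRNAs (green) and intergenic circRNAs (grey); the numbers at the right are control and PEG reads. Exonic circRNAs have the ratio of 2.51 and antisense circRNAs the ratio of 0, drawn as an arrowhead.

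Set beside the intergenic circRNAs, with 253 control and 46 PEG reads and a ratio of 0.249 (0.178 to 0.342), the host-associated ones had a ratio whose interval overlapped theirs. The ratio within each subgenome was higher for the host-associated circRNAs, at 0.547 against 0.421 in A, 0.659 against 0.246 in B and 0.295 against 0.113 in D, with overlapping intervals in each. This order is the same on any scaling, since each multiplies all PEG reads by a common factor. On the nuclear scaling the ratios were 1.81 against 1.39 in A, 2.18 against 0.812 in B and 0.976 against 0.373 in D. Those nearer to 1 were then the intergenic circRNAs in A and B. Read in both libraries were 2 of 34 host-associated and 9 of 53 intergenic circRNAs. Those with at least 5 reads were 8 of 34 and 24 of 53. Overlapping intervals do not show that the groups are alike. The difference between the groups was not tested, since circRNAs of the same library are not replicates of a condition.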

How the data were processed

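Total RNA of 1 control and 1 PEG leaf library was enriched for circRNAs and sequenced. The extraction text of the labels names retinas, while tissue, title and the study's methods name leaf. After quality filtering, the authors mapped the reads to IWGSC1.0+popseq with BWA-MEM (version not given in the sources used here). CIRI 1.2 then called the circRNAs against the Ensembl Plants release 29 annotation. The deposited counts are raw back-splice junction reads per circRNA. The deposited log2 values are those counts scaled by the authors, which was checked on all 88 circRNAs. The deposited predicted lengths are nucleotides. Junction reads number 353 and 124, so most circRNAs rest on few reads, some of which may be PCR copies of 1 molecule. The table holds no marker genes by which the leaf label could be checked.

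From the counts, exact binomial tests (threshold 0.05, Benjamini-Hochberg over all circRNAs) and Clopper-Pearson intervals at 95% were obtained in scipy 1.17.1 (Python 3.11.15), after the test had been checked on simulated data. With 1 library per condition no count model with an estimate of spread could be fitted. Sums over circRNAs were given intervals and no p. A library at 0 stands at a floor of 3 counts in folds. Any of the 34 circRNAs could be named, with full statistics from 5 reads over both libraries, and intergenic ones where they overlap or lie within 1000 nt. The circRNAs, groups and alternatives were chosen with earlier results of these data known. Alternatives were other scalings, a read or part of one added to each count, a cutoff of 4-fold, at least 3 or 5 reads, overlapping circRNAs summed, and circRNAs left out. Coordinates are those of the circRNA names in the deposited table, counted from 1. No circRNA sequence was used.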

Additional observations from a re-analysis of the deposited data

How the results depend on the processing

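No paired analysis was possible because each condition has 1 library. With the totals exchanged, 3 circRNAs were higher and 25 lower at the 2-fold cutoff, 3 passed the exact test as lower, and the summed ratio was 0.234 over all 34 and 0.167 for sense overlapping ones. Without scaling 25 were lower. On the junction-read scaling 3 were lower at the cutoff, 2 passed the exact test as higher and 0 as lower (here and below edgeR and other count models could not be fitted), and the ratio was 0.911 over all 34, 0.652 for sense overlapping, 1.37 for subgenome B, 0.614 for D and 0.610 for lengths of 200 to 100000 nt. On the nuclear scaling 18 were higher and 1 lower at the cutoff, 3 passed the exact test as higher and 0 as lower, and the ratio turned to 1.45 over all 34 and 1.04 for sense overlapping circRNAs. It was then 8.30 for exonic ones, 1.81, 2.18 and 0.976 for A, B and D, 0.970 for 200 to 100000 nt and 1.91 for longer ones, and 5D:18963119|19091255 turned to a ratio of 1.51 (exact adjusted p = 1). At a 4-fold cutoff 3 were higher and 3 lower. With at least 3 reads 3 were higher, and the ratio was 0 for subgenome A and for lengths under 200 nt, whose PEG reads all came from circRNAs with 2 reads. With at least 5 reads 3 were higher and 5 lower and the ratio of B was 3.01. The exact test adjusted over circRNAs with at least 5 reads called 1 as higher, by fewer tests. Over loci it also called 1 as higher, where reads of overlapping circRNAs were summed as well. Adding 1 or 0.5 reads to every count gave 24 lower and 9 higher. Intronic, antisense, shorter-than-200-nt and exonic circRNAs rest on 4, 9, 10 and 17 reads, which limits their ratios.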

Other observations

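Among the host-associated circRNAs, 8 had a genomic span of 1300 to 1700 nt, a window chosen after the values were seen. None had an A chromosome or scaffold in its name, and they held 46 control and 0 PEG reads, so that the other 26 had 54 control and 32 PEG reads. In the same window lay 29 of the 53 intergenic circRNAs, with 133 control and 17 PEG reads. No test was made of this window.

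Of the 6 intergenic circRNAs under 200 nt, 3 were read in PEG alone and 3 in the control alone, with 10 control and 8 PEG reads. All 10 nuclear circRNAs under 200 nt had 14 reads in each library, a ratio of 1.37 (95% exact interval 0.605 to 3.10), against 313 control and 53 PEG reads for the 69 of 200 to 100000 nt, a ratio of 0.232 (0.170 to 0.311). On the nuclear scaling, applied to these groups after the data were seen, the ratios were 4.53 (2.00 to 10.2) and 0.766 (0.562 to 1.03). The short circRNAs had the higher ratio on each scaling, since a common factor for all PEG reads cannot change this order. They were nearer to 1 on some scalings only. The lengths had been seen when these limits were set.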
